A study of Mus musculus with 8 samples.

Results

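The genes described here are 10 factors that carry the signal of CD27 from the membrane to the nucleus. They are 4 adaptors of the TNF receptor-associated factor (TRAF) family (*Traf1*, *Traf2*, *Traf3* and *Traf5*), the 5 genes for subunits of NF-kB (*Nfkb1*, *Nfkb2*, *Rel*, *Rela* and *Relb*) and *Nfkbia*, which encodes the inhibitor IkB-alpha. They were chosen by name, with earlier results of these data known, and each has 1 of the 48404 rows kept from the deposited expression table. All 10 were above the minimum for testing, which 12798 genes passed.

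Splenic CD4+ T cells were sorted into Foxp3+ Tregs and Foxp3- Tconvs and their RNA was sequenced, with 2 libraries in each of 4 groups and 200000 sorted cells per library. Control mice were CD27+/-, and CD70Tg mice were CD11c-Cd70tg;CD27+/-. All mice therefore carried 1 null allele of *Cd27*, and all carried the Foxp3-eGFP reporter by whose fluorescence the cells were sorted. The mice had a C57Bl/6 background and were between 6 and 8 weeks old. In CD70Tg mice the CD11c promoter, which is active in dendritic cells, drives CD70, so that T cells meet the ligand of CD27 continuously. CD70Tg mice develop spontaneous disease, whose onset the study places at or after this age. Any early disease and the CD27 signal itself cannot be told apart in these groups. Tconvs were purified with a step that removes CD25+ cells, and Tregs without it. No source says that the 2 libraries of a group came from separate mice, so that p-values measure the spread between these libraries only.

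CD27 belongs to the TNF receptor superfamily and has no enzymatic activity. When CD70 binds it, its cytoplasmic tail recruits TRAF2 and TRAF5, which feed the canonical NF-kB branch through IkB kinase and also the JNK branch. In the canonical branch IkB-alpha is degraded, and dimers of p50 (from *Nfkb1*) with RelA or c-Rel enter the nucleus. In the non-canonical branch, TRAF2 and TRAF3 with the cIAP ligases keep the kinase NIK low. Once that complex is engaged, NIK accumulates, p100 (from *Nfkb2*) is cut to p52, and p52 enters the nucleus with RelB. *Nfkbia*, *Nfkb1*, *Nfkb2*, *Relb* and *Traf1* are themselves textbook targets of NF-kB. In Tregs, c-Rel serves the induction of *Foxp3*, and RelA and c-Rel maintain Treg identity. The table measures RNA, and neither cleavage of p100 nor nuclear entry is seen in it.

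Since several of these genes are known NF-kB targets, the 250 bases before their start sites were searched on both strands for the consensus kB site, a degenerate motif of 10 letters. The set of RefSeq promoters used (GRCm38.p6) covered 8 of the 10 genes, in 10 windows, and lacked *Nfkb1* and *Relb*. Matches were present for *Nfkb2*, *Nfkbia*, *Rel* and *Traf3*, and the letters were not found in the windows of *Traf1*, *Traf2*, *Traf5* and *Rela*. Of all 32851 promoters, 7.25% held at least 1 match, 1.03% at least 2 and 0.143% at least 3. The first *Nfkb2* start had 3 matches, at 39, 38 and 11 bases before it, of which the first 2 overlap. The other *Nfkb2* windows had 1 match each, at 236 and at 225 bases. *Rel* had 2 overlapping matches at 92 and 91 bases, *Nfkbia* 1 at 29 bases and *Traf3* 1 at 10 bases. A match is a description of these letters and no measurement of binding. The sequences around the matches are shown, since below *Nfkb2* and *Nfkbia* were higher in CD70Tg cells and *Rel* and *Traf3* did not pass the test there. Capitals mark the matched letters, and each sequence is written 5′ to 3′ on the strand of its gene. The *Nfkb2* stretches at chr19:46304692-46304721 and chr19:46304722-46304736 (plus strand) lie within the first exon of a longer annotated transcript and were kept short. The others are at chr12:55492648-55492767 (minus strand, *Nfkbia*), chr11:23770971-23771089 (minus strand, *Rel*) and chr12:111166250-111166369 (plus strand, *Traf3*).
Nfkb2, bases 45 to 16 before the start: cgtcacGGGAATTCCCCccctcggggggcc
Nfkb2, bases 15 to 1 before the start: gaaaGGGGCTTTCCc
Nfkbia, bases 120 to 1 before the start: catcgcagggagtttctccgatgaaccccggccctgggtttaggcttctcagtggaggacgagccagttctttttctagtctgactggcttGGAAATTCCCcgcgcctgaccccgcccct
Rel, bases 120 to 2 before the start: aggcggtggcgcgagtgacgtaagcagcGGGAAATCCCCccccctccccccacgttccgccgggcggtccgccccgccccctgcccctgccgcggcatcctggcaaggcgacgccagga
Traf3, bases 120 to 1 before the start: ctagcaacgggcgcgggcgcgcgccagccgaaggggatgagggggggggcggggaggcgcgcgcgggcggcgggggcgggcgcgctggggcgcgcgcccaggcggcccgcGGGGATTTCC

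Values are read counts that the authors scaled to about 20 M per library, so that 20 stands for 1 read per M. From the smallest steps in 6 of the 8 libraries, the reads on genes were between 1.92 M, in a CD70Tg Treg library, and 9.55 M, in a control Tconv library, and the other 2 libraries, both of Tconvs, had at least 13.4 M and at least 20 M. In the libraries with a resolved step, the fewest reads behind a value of these genes were 123, for *Traf5* in that same CD70Tg Treg library, where counting alone gives an error of 9.0%. The libraries of a group are called a and b in the order of the table. *Foxp3* was at 1039 and 1497 in control Tconvs, 1170 and 1285 in CD70Tg Tconvs, 19769 and 20102 in control Tregs, and 21367 and 21080 in CD70Tg Tregs, as the sort requires. *Cd27*, the receptor, was at 3239 and 2980 in control and 3129 and 3359 in CD70Tg Tconvs, and at 5173 and 5543 in control and 6123 and 5894 in CD70Tg Tregs. It did not pass between genotypes and was 1.72-fold higher in control Tregs than in control Tconvs (adjusted p = 2.8e-05, limma). The paper reports, as data not shown, that T cells of CD70Tg mice carried much less of the receptor. The RNA is therefore no measure of CD27 on these cells. *Cd70* was too low for testing, at 4 and 3, then 15 and 28 in the Tconv groups and 0 and 9, then 11 and 44 in the Treg groups. The transgene is driven in other cells, so that *Cd70* in T cells is no direct check of it.

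The first question was whether continuous CD70 changes the RNA of these factors in Tregs. *Traf1*, *Nfkb1*, *Nfkb2* and *Nfkbia* were higher in CD70Tg than in control Tregs, by 1.35- to 1.95-fold, and no member passed as lower. These are 4 of 10 members, where 3.94% of all tested genes were higher and 3.46% lower at an adjusted p under 0.05 (limma). The median log2 fold change was 0.40 over the members and -0.05 over all tested genes. Under the study's stricter rule, which also asks for an absolute log2 fold change over 1, 0 of the 10 members and 3.6% of all genes were called. At an unadjusted p under 0.05 there were 6 members, against 21.6% of all genes. They included *Traf2*, which was higher, and *Traf5*, which was lower. With no minimum value, so that more genes were tested, all 4 calls were lost, with adjusted p of 0.054 for *Traf1*, 0.057 for *Nfkb2*, 0.091 for *Nfkbia* and 0.12 for *Nfkb1*.

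The same question was asked of Tconvs. *Traf1*, *Nfkb1*, *Nfkb2* and *Nfkbia* were higher in CD70Tg Tconvs too, by 1.47- to 2.04-fold, and no member passed as lower. Here 6.82% of all tested genes were higher and 1.98% lower, and the median log2 fold change was 0.38 over the members and 0.01 over all genes. With the fold threshold added, 1 member (*Nfkb1*) and 4.64% of all genes were called. With no minimum value, *Traf1* and *Nfkb1* kept their calls, and *Nfkb2* (adjusted p = 0.054) and *Nfkbia* (adjusted p = 0.11) lost them.

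**Figure D1:**
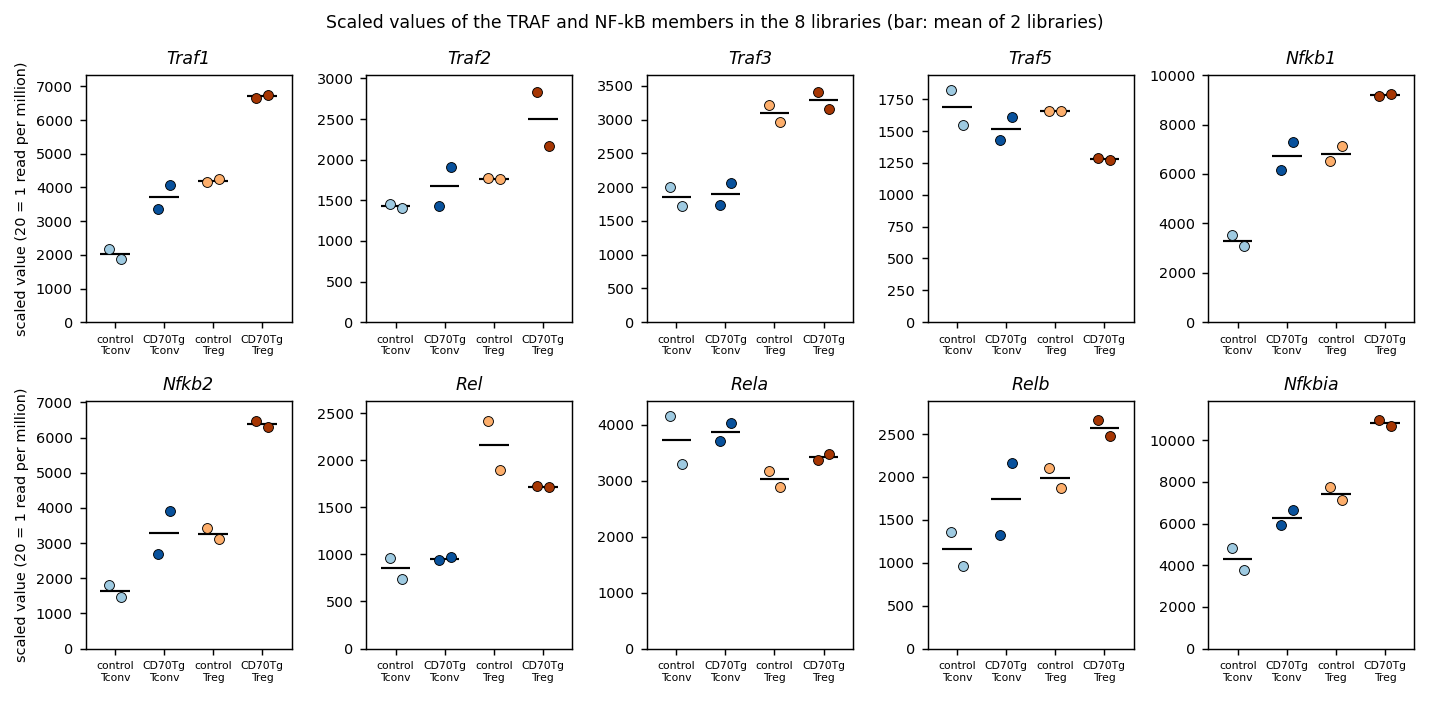
Scaled value (vertical axis, 20 = 1 read per M, starting at 0) of each of the 10 genes in the 8 libraries. Points are libraries, the left one of each pair being library a, and bars are means of the 2 libraries. Traf1, Nfkb1, Nfkb2, Relb and Nfkbia have their highest values in CD70Tg Tregs, whereas Traf5 has its lowest there and Rela is lowest in control Tregs.

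Of the 4 adaptors, *Traf1* was the one that passed between genotypes, and the adaptors were not tested against each other. It is on chr2:34941750-34961772 (minus strand, GRCm38) and encodes the only TRAF without a RING domain, an adaptor induced on activation that binds TRAF2 and the cIAPs. In Tconvs it was at 2162 and 1875 in controls and at 3357 and 4072 in CD70Tg mice. In Tregs it was at 4159 and 4256 in controls and at 6646 and 6759 in CD70Tg mice. The groups did not overlap in either subset. Between genotypes the log2 fold change was 0.88 ± 0.12 (SE, adjusted p = 0.00013) in Tconvs. It was 0.67 ± 0.12 (adjusted p = 0.0028) in Tregs.

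*Traf2* (chr2:25517982-25546940, minus strand) encodes the adaptor that brings the cIAP ligases to the receptor. It was at 1451 and 1402 in control Tconvs and at 1430 and 1912 in CD70Tg Tconvs, which overlap. It was at 1772 and 1761 in control Tregs and at 2832 and 2175 in CD70Tg Tregs. Both CD70Tg Treg libraries were above both controls, but they lay far apart, and the log2 fold change of 0.49 ± 0.15 (SE) did not pass (adjusted p = 0.061). It passed with the 4 Treg libraries alone, with array weights, and with median-of-ratios or quantile scaling. Adjusted p ran from 0.011 to 0.21 over the alternatives other than leaving out 1 library. With 1 library left out, the log2 fold change ran from 0.3 to 0.68.

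*Traf3* (chr12:111166370-111267153, plus strand) encodes the adaptor that holds NIK for degradation. In control and CD70Tg Tregs it was at 3222 and 2969, and at 3407 and 3159. In Tconvs the values were 2005 and 1716 in controls and 1741 and 2068 in CD70Tg mice. The genotypes overlapped in both subsets, and the 95% confidence interval of the fold was 0.88 to 1.28 in Tregs and 0.849 to 1.23 in Tconvs.

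*Traf5* (chr1:191997205-192092559, minus strand) encodes an adaptor that CD27 binds together with TRAF2. It was at 1660 and 1656 in control Tregs and at 1286 and 1273 in CD70Tg Tregs. It was at 1823 and 1551 in control Tconvs and at 1430 and 1607 in CD70Tg Tconvs. *Traf5* was the one adaptor with both CD70Tg Treg libraries below both controls, with a log2 fold change of -0.37 ± 0.13 (SE) that did not pass (adjusted p = 0.089). It passed with the 4 Treg libraries alone or with array weights, with a lowest adjusted p of 0.029. In Tconvs the log2 fold change was -0.15 (adjusted p = 0.62).

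*Nfkb1* and *Nfkb2* encode the precursors p105 and p100, which are cut to p50 and p52, and both were higher in CD70Tg cells of both subsets. *Rel*, *Rela* and *Relb* encode the partners with a transactivation domain, and none of them passed the test between genotypes in either subset. Whether the precursors and partners differ in their change was not tested, and the log2 fold changes of *Relb*, given below, were near that of *Nfkb1* in Tregs.

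*Nfkb1* (chr3:135584655-135691547, minus strand) was at 3517 and 3081 in control Tconvs and at 6163 and 7295 in CD70Tg Tconvs. It was at 6522 and 7124 in control Tregs and at 9174 and 9238 in CD70Tg Tregs. CD70Tg Tconvs thereby reached the values of control Tregs. The log2 fold change was 1.03 ± 0.12 (SE) in Tconvs (adjusted p = 2.1e-05). The Treg effect was 0.43 ± 0.12 (adjusted p = 0.037). The call in Tregs was lost when any 1 of the 4 Treg libraries was left out, with adjusted p up to 0.32.

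*Nfkb2* (chr19:46304320-46312385, plus strand), with the 3 kB matches before its start, was at 1797 and 1465 in control Tconvs and at 2680 and 3916 in CD70Tg Tconvs. In Tregs it was at 3417 and 3118 in controls and at 6458 and 6297 in CD70Tg mice. The log2 fold change was 1.00 ± 0.15 (SE) in Tconvs (adjusted p = 0.00037). In Tregs it was 0.97 ± 0.15 (adjusted p = 0.00093), the largest among the members in Tregs. It was 0.72 in Tconvs without CD70Tg library b and 1.27 without CD70Tg library a, and passed in both cases. Of its exon length, 18.1% is shared with genes of the opposite strand, chiefly *Psd*. *Psd* was at 116 and 113, then 142 and 195 in the Tconv groups and at 374 and 311, then 680 and 658 in the Treg groups, so that it moved with *Nfkb2*. The strand setting of the counting is not given in the sources used here, and reads of the 2 genes cannot be told apart in the shared stretch.

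*Rel* (chr11:23736847-23770970, minus strand), for c-Rel, was at 961 and 741 in control Tconvs and at 940 and 970 in CD70Tg Tconvs. In Tregs it was at 2422 and 1892 in controls and at 1724 and 1713 in CD70Tg mice. The CD70Tg Treg libraries lay below the controls, which were themselves widely spread, and the log2 fold change of -0.32 ± 0.15 (SE) did not pass (adjusted p = 0.24). It was -0.49 without control Treg library b and -0.14 without control Treg library a (adjusted p = 0.18 and 0.83).

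*Rela* (chr19:5637483-5648130, plus strand), for the p65 subunit of the canonical dimer, was at 4157 and 3296 in control and 3717 and 4034 in CD70Tg Tconvs. In Tregs it was at 3174 and 2886 in controls and 3375 and 3480 in CD70Tg mice. The 95% confidence interval of the fold between genotypes was 0.871 to 1.26 in Tconvs and 0.942 to 1.36 in Tregs.

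*Relb* (chr7:19606217-19629438, minus strand), for the partner of p52, was at 1353 and 963 in control and at 1320 and 2167 in CD70Tg Tconvs. On the log2 scale, the libraries of both Tconv groups were spread more widely for *Relb* than for any other member, and the groups overlapped. Its log2 fold change of 0.57 ± 0.19 (SE) in Tconvs did not pass (adjusted p = 0.087). It ranged from 0.21 to 0.92 when 1 library was left out, and passed without control library a or CD70Tg library a, with a lowest adjusted p of 0.0025. In Tregs *Relb* was at 2102 and 1874 in controls and at 2665 and 2480 in CD70Tg mice, without overlap, and the log2 fold change was 0.37 ± 0.19 (adjusted p = 0.28). It passed with the 4 Treg libraries alone (adjusted p = 0.021).

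*Nfkbia* (chr12:55489410-55492647, minus strand) encodes IkB-alpha, which holds NF-kB in the cytoplasm and is remade after each round of activation. It was at 4825 and 3784 in control Tconvs and at 5950 and 6636 in CD70Tg Tconvs. It was at 7764 and 7115 in control Tregs and at 10971 and 10690 in CD70Tg Tregs. The groups did not overlap, and the log2 fold change was 0.56 ± 0.13 (SE) in Tconvs (adjusted p = 0.0089). It was 0.54 ± 0.13 in Tregs (adjusted p = 0.015). The call in Tregs was lost without any 1 of the 4 Treg libraries, and that in Tconvs without control library b or CD70Tg library b, with adjusted p up to 0.14 in both.

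**Figure D2:**
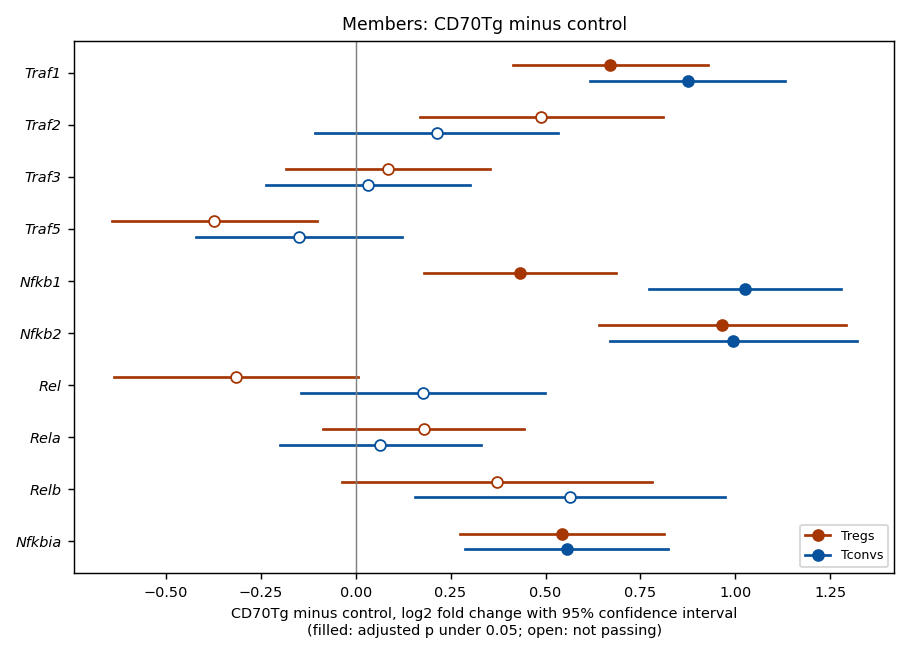
Log2 fold change, CD70Tg minus control, of the 10 genes in Tregs and Tconvs (horizontal axis), with 95% confidence intervals as lines and filled points for an adjusted p under 0.05. Traf1, Nfkb1, Nfkb2 and Nfkbia are filled in both subsets, and the intervals of Traf3 and Rela span 0 in both.

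Tregs and Tconvs were then compared in their response to CD70. No member passed the test of the difference between the genotype effects, where 1.02% of all genes did (limma), and 2 members, *Nfkb1* and *Rel*, had an unadjusted p under 0.05, against 10.7% of all genes. The effect on *Nfkb1* was smaller in Tregs than in Tconvs by 0.59 ± 0.17 (SE) on the log2 scale (difference -0.59, adjusted p = 0.13), and passed only when CD70Tg Tconv library a was left out (adjusted p = 0.029). For *Rel* the difference was -0.49 ± 0.21 (adjusted p = 0.41). For *Nfkb2* and *Nfkbia* the differences were -0.03 and -0.01, with 95% confidence intervals of -0.49 to 0.43 and -0.39 to 0.37. The median difference was -0.11 over the members and -0.08 over all genes.

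Libraries of one group were not alike in the level of these genes. In control Tconvs, library b was below library a for all 10 members, by a median of 0.26 on the log2 scale (b minus a, -0.26), against -0.11 over all genes. In CD70Tg Tconvs, library b was above library a for all 10, by a median of 0.25 against 0.17 over all genes. In Tregs the members went both ways, with 2 higher in library b of controls and 3 in library b of CD70Tg mice. The deepest Tconv libraries were control library a and CD70Tg library b, so that in Tconvs the members were higher in the deeper library of each group. The part of depth in these differences was not tested.

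Genes listed as markers of other cell types also differed between genotypes. Of the 4 NK cell markers, 2 were tested, and in each subset *Eomes* was higher and *Klrb1c* lower in CD70Tg cells. The sum of all 4 was 702 to 767 in control and 2888 to 3473 in CD70Tg Tconvs, and 111 to 157 in control and 1469 to 1547 in CD70Tg Tregs. *Eomes*, for a transcription factor that activated T cells express too, made the sum higher. Without it the sum was lower in CD70Tg cells, at 415 and 444 against 81 and 87 in Tconvs and at 64 and 36 against 0 and 11 in Tregs, and the defining marker *Ncr1* was at or under the value of 3 reads in every library. Both CD8 T cell markers were higher in CD70Tg Tconvs and 1 of 2 in CD70Tg Tregs, with sums of 681 to 720 against 1563 to 1590 and of 317 to 417 against 631 to 660. Of the 4 erythroid markers, all tested, 3 were higher in CD70Tg Tregs (483 to 1346 against 2025 to 3251) and none in Tconvs (734 to 1321 against 798 to 838). Of the 4 neutrophil markers, the 1 that could be tested was higher in CD70Tg Tregs (sums of all 4, 10 to 32 against 214 to 232). The sums in Tconvs were 13 to 30 and 0 to 21, and *Retnlg* was at or under 3 reads throughout. Of the 8 dendritic cell and macrophage markers, 7 were tested, and 2 were higher and 1 lower in each subset, with sums of 1588 in both control and 1260 to 1731 in CD70Tg Tconvs, and 2853 to 2896 and 3087 to 3264 in Tregs. Of the 7 B cell markers, 3 were tested and none passed, with sums between 171 and 526 in all libraries. The 3 plasma cell markers were too low for testing, with sums of 21 to 69, and *Tnfrsf17* was at 0. The T cell markers summed to 87751 to 119403 and none of the 6 passed. Of the 4 Treg markers, 1 was higher in CD70Tg Tconvs, where their sums were 2915 to 3399 against 2695 to 3346 in controls. In Tregs their sums were 62341 to 63193 in controls and lower, at 54604 to 55031, in CD70Tg mice, without overlap, and none passed. *Il2ra*, for CD25, was at 23490 and 19497 in control and 14398 and 14659 in CD70Tg Tregs (adjusted p = 0.056). Whether the cells behind these markers had a part in the members' differences was not tested. In sorted bulk cells, a change in the share of a cell state and a change of RNA per cell cannot be told apart.

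The level of these factors also separated Tregs from Tconvs. In control mice, 7 of the 10 members (*Traf1*, *Traf3*, *Nfkb1*, *Nfkb2*, *Rel*, *Relb* and *Nfkbia*) passed as higher in Tregs and none as lower. Of all genes, 27.5% were higher and 18.4% lower. With the fold threshold added, 4 members (*Traf1*, *Nfkb1*, *Nfkb2* and *Rel*) and 19.2% of all genes were called. The median log2 difference, Treg minus Tconv, was 0.80 over the members and 0.07 over all genes, and for all genes it moved to -0.08 with quantile scaling, a shift smaller than each of the 7 differences.

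*Rel* had the largest difference among the members, at 2.53-fold (95% confidence interval 2.02 to 3.16, adjusted p = 3e-06). *Traf1* was 2.09-fold higher (adjusted p = 3.4e-06), *Nfkb1* 2.07-fold (adjusted p = 3.3e-06) and *Nfkb2* 2.01-fold (adjusted p = 6.5e-05). *Nfkbia* and *Relb* were each 1.74-fold higher (adjusted p = 9.2e-05 and 0.0032) and *Traf3* 1.67-fold (adjusted p = 0.0002). With no minimum value, *Relb* lost its call (adjusted p = 0.062). *Traf2* and *Traf5* did not pass, at 1.24- and 0.986-fold. *Rela* went the other way, at 0.818-fold (95% confidence interval 0.681 to 0.983), and did not pass (adjusted p = 0.069). It passed as lower in Tregs with median-of-ratios or quantile scaling, with array weights, or without control Tconv library b, the lowest adjusted p being 0.012. The log2 difference ran from -0.46 without control Tconv library b to -0.12 without control Tconv library a (adjusted p = 0.52).

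In CD70Tg mice, 8 members passed as higher in Tregs, the same 7 and *Traf2*, and none as lower. Of all genes, 22.6% were higher and 20.1% lower, and the median was 0.69 over the members against -0.02 over all genes. The fold threshold left 0 members and 17.2% of all genes. *Nfkb2* was 1.97-fold higher (adjusted p = 0.00011), *Traf1* 1.81-fold (adjusted p = 4.1e-05), *Rel* 1.80-fold (adjusted p = 0.00036), *Traf3* 1.73-fold (adjusted p = 0.00014) and *Nfkbia* 1.72-fold (adjusted p = 0.00014). *Nfkb1* was 1.37-fold higher (adjusted p = 0.0061). *Relb* (1.52-fold, adjusted p = 0.019) lost its call without CD70Tg Tconv library a or either CD70Tg Treg library. Its log2 difference ran from 0.25 to 0.96 with 1 library left out. *Traf2* (log2 fold change 0.58, adjusted p = 0.0056) lost its call without CD70Tg Tconv library a or CD70Tg Treg library a. The *Traf2* difference ran from 0.38 to 0.79. With no minimum value, *Relb* and *Traf2* lost their calls too (adjusted p = 0.14 and 0.05). These contrasts share libraries with those between genotypes. The removal of CD25+ cells was part of the Tconv purification only, and its part in the subset differences cannot be told apart from that of the subset.

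**Figure D3:**
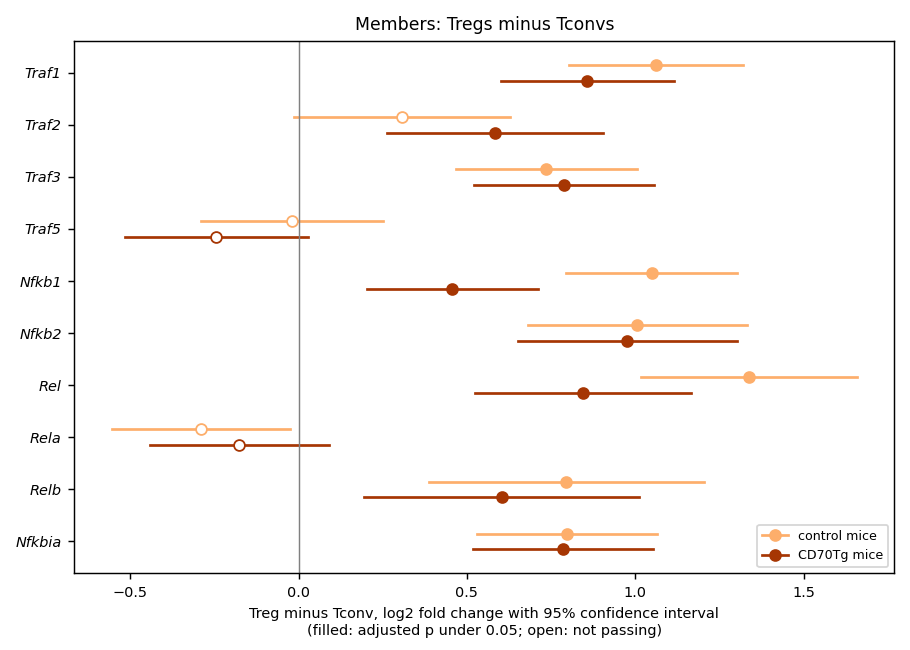
Log2 fold change, Treg minus Tconv, of the 10 genes in control and in CD70Tg mice (horizontal axis), with 95% confidence intervals as lines and filled points for an adjusted p under 0.05. All members but Traf2, Traf5 and Rela are filled in both genotypes, and Rela lies below 0 in both.

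The order of the 4 groups was read from the means. For *Traf1* and *Nfkbia* it was CD70Tg Treg, control Treg, CD70Tg Tconv, control Tconv, and no neighbouring groups overlapped in their values. For *Nfkb1* and *Nfkb2* the control Tregs and CD70Tg Tconvs overlapped in the middle, at means of 6823 and 6729 for *Nfkb1* and of 3268 and 3298 for *Nfkb2*. *Traf2*, *Traf3* and *Relb* had the order of *Traf1*, with overlap of CD70Tg Tconvs with control Tconvs and with control Tregs for *Traf2* and *Relb*, and between the genotypes of each subset for *Traf3*. The order was different for *Rel*, which was highest in control Tregs, for *Rela*, which was highest in CD70Tg Tconvs with overlap between neighbours except for the lowest group, control Tregs, and for *Traf5*, which was highest in control Tconvs and lowest in CD70Tg Tregs.

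The makeup of each family was compared per kb of exon, since levels of different genes can be set side by side only per length. *Traf5* was the largest of the 4 adaptors in control Tconvs, with 32.6% ± 0.85 (SD, n = 2) of their summed level per kb, and the smallest in CD70Tg Tregs, with 14.2% ± 0.67. *Traf1* went from the smallest share in control Tconvs, 20.2% ± 0.25, to the largest in CD70Tg Tregs, 38.5% ± 2.56. It was at 31.4% ± 0.01 in CD70Tg Tconvs and 29.7% ± 0.83 in control Tregs. *Traf2* stayed between 21.5% and 24.8% and *Traf3* between 19.4% and 26.2% in the 4 groups. A share depends on the other genes of the family too. *Traf5* itself was at 369 per kb in control Tconvs and 280 in CD70Tg Tregs, and *Traf1* at 229 and 760.

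Among the subunit genes, *Rela* made up 53.8% ± 0.04 (SD, n = 2) of the level per kb in control Tconvs, 40.8% ± 4.04 in CD70Tg Tconvs, 32.2% ± 0.39 in control Tregs and 26.8% ± 0.78 in CD70Tg Tregs. *Nfkb2* made up 15.8% ± 0.30, 22.9% ± 2.54, 23.2% ± 0.22 and 33.4% ± 0.34 in the same order. *Rela* was thus the largest of the 5 in every group but CD70Tg Tregs, where *Nfkb2* was at 1391 ± 24.8 per kb and *Rela* at 1116 ± 24.2. *Nfkb1* was at 12.2% in control Tconvs and at 18.0% to 18.5% in the other groups. *Rel* was the smallest throughout, at 4.1% to 9.4%, with its largest share in control Tregs. The lengths are those of all annotated exons of a gene, so that the order between genes depends on which transcripts the cells use, whereas the change of one gene's share between groups does so less. These shares were not tested, and a share can fall without a fall of the gene. *Rela* itself was at 1213 per kb in control and 1262 in CD70Tg Tconvs, and at 986 in control and 1116 in CD70Tg Tregs.

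**Figure D4:**
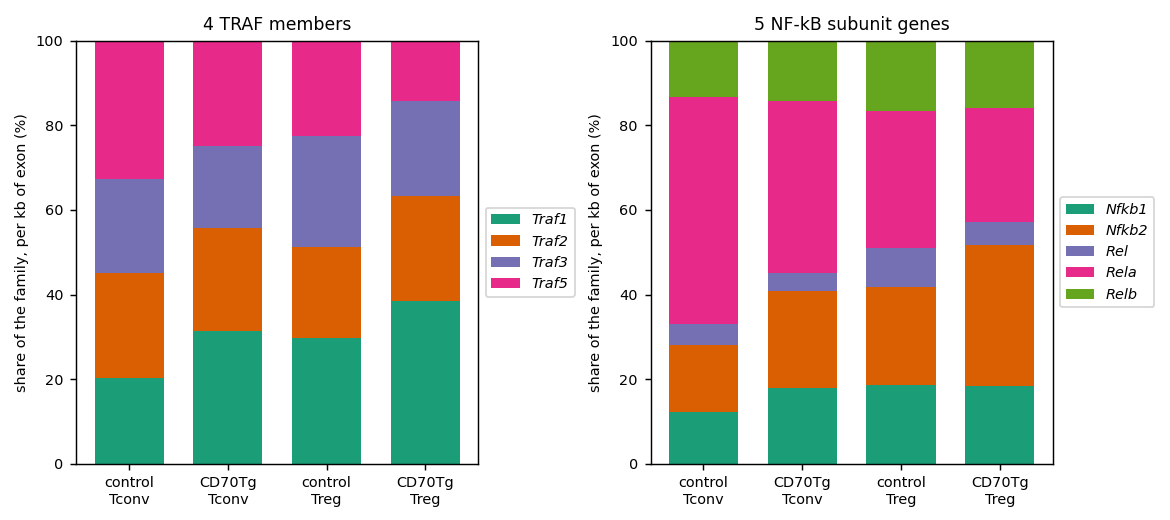
Share (%) of each gene in the summed level per kb of exon of the 4 TRAF members (left) and of the 5 NF-kB subunit genes (right), as means of 2 libraries in each of the 4 groups. Traf1 widens and Traf5 narrows from control Tconvs to CD70Tg Tregs, and Rela narrows from 53.8% to 26.8% while Nfkb2 widens from 15.8% to 33.4%. A share can narrow without a fall of the gene's own level.

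Around these members, 84 other genes of the pathway were listed, from receptors to targets, and 79 were tested. In CD70Tg Tregs, 6 were higher and 3 lower, where 3.94% of all genes were higher and 3.46% lower. In CD70Tg Tconvs, 15 were higher and 4 lower, where the shares of all genes were 6.82% and 1.98%. None of the 79 passed the test of the difference between subsets (limma). In controls, 42 were higher and 8 lower in Tregs than in Tconvs, beside 27.5% and 18.4% of all genes. In CD70Tg mice, 33 were higher and 10 lower, beside 22.6% and 20.1%.

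Near the receptor, the list of CD27, its ligand and *Siva1*, which encodes a protein that binds the CD27 tail, had 2 tested genes, and neither passed between genotypes. Of 10 other TRAF family and TRAF-binding genes, *Birc2*, for the ligase cIAP1, was higher in both subsets, by 1.68-fold in Tregs (adjusted p = 0.002) and 1.35-fold in Tconvs (adjusted p = 0.045). *Birc3*, for cIAP2, was higher in Tconvs (1.40-fold, adjusted p = 0.02) and did not pass in Tregs (adjusted p = 0.69), and the difference between these effects did not pass (adjusted p = 0.46). Of the 11 kinases of both NF-kB branches, 0 passed between genotypes in either subset. Of all genes, 3.94% were higher and 3.46% lower in Tregs, and 6.82% and 1.98% in Tconvs. Among the kinases, *Map3k14*, for NIK, was singled out after its values were seen. It was at 2462 and 2415, then 2473 and 3072 in the Tconv groups and at 1087 and 1095, then 1004 and 1148 in the Treg groups. It was thus lower in Tregs, at 0.449-fold in controls (adjusted p = 3.3e-06) and 0.391-fold in CD70Tg mice (adjusted p = 7.9e-07), where *Nfkb2*, whose product NIK acts on, was higher. Of the 8 genes of the JNK branch, *Map3k5*, for the kinase ASK1, was higher in CD70Tg Tconvs (1.61-fold, adjusted p = 0.007) and 0 passed in Tregs.

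Inhibitors and brakes of NF-kB were among the genes that were higher. Of 6 other IkB family genes, *Nfkbie* (IkB-epsilon) was higher in both subsets, by 1.58-fold in Tregs (adjusted p = 0.014) and 1.62-fold in Tconvs (adjusted p = 0.0067). *Nfkbiz*, for the nuclear IkB-zeta, and *Bcl3*, for a nuclear partner of p50 and p52, were higher in Tconvs (1.73-fold, adjusted p = 0.0034, and 1.88-fold, adjusted p = 0.047). The *Bcl3* groups overlapped, at 1445 and 620 in control and 1438 and 2203 in CD70Tg Tconvs. Of 11 deubiquitinases and brakes, *Tnfaip3*, for the ubiquitin-editing enzyme A20, was higher in both subsets, by 1.40-fold in Tregs (adjusted p = 0.029) and 1.77-fold in Tconvs (adjusted p = 0.00037). *Nlrc5*, also the transactivator of MHC class I genes, was 2.02-fold higher in Tconvs (adjusted p = 2.5e-05). *Tnip3*, for an A20-binding protein, was at 6 and 5 in control and 73 and 122 in CD70Tg Tconvs (log2 fold change 3.25, adjusted p = 3e-05). Of 7 genes of the relay from the TCR to NF-kB and of the linear ubiquitin ligase, *Prkcq*, for protein kinase C theta, was lower in CD70Tg Tregs (0.702-fold, adjusted p = 0.0093).

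The 14 tested classical NF-kB target genes did not move one way, and most did not pass. In CD70Tg Tregs 2 were higher, 2 lower and 10 did not pass, and in CD70Tg Tconvs 3, 2 and 9. *Ccl5*, a chemokine of effector T cells and NK cells, was at 823 and 743 in control and 18091 and 12896 in CD70Tg Tconvs, and at 539 and 1226 in control and 8077 and 8124 in CD70Tg Tregs. *Icam1*, for an adhesion molecule, was higher by 2.89-fold (adjusted p = 9.6e-06) in Tconvs and by 1.57-fold (adjusted p = 0.025) in Tregs, and *Ier3*, an early response gene, was at 24 and 13 in control and 98 and 249 in CD70Tg Tconvs (adjusted p = 0.0016). *Cd83* and *Cd69*, surface markers of recent activation, were lower in both subsets. *Cd83* was at 0.337-fold (adjusted p = 9.7e-05) in Tconvs and at 0.426-fold (adjusted p = 0.0018) in Tregs, and *Cd69* at 0.539-fold (adjusted p = 0.0017) and 0.677-fold (adjusted p = 0.046).

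Other members of the TNF receptor superfamily changed as well, 3 of 10 higher and 2 lower in CD70Tg Tconvs and 1 higher in CD70Tg Tregs. *Tnfrsf9* (4-1BB) was higher in both subsets, by 1.52-fold in Tregs (adjusted p = 0.015) and 1.41-fold in Tconvs (adjusted p = 0.036). *Tnfrsf1b* (TNFR2) and *Tnfrsf4* (OX40) were 2.24-fold and 2.14-fold higher in Tconvs (adjusted p = 6.2e-05 and 0.0052). *Tnfrsf1a* (TNFR1) and *Tnfrsf13b* (TACI) were lower in Tconvs, at 0.703- and 0.654-fold (adjusted p = 0.033 and 0.008).

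The genes closest to the 4 members that passed were sought among all tested genes, by the root mean square difference of their centred log2 values over the 8 libraries. For *Traf1* they were *Ncf4* (0.111), *Gimap7* (0.118) and *Gbp6* (0.129). For *Nfkb1* they were *Rnf19b* (0.071), *Mir8107* (0.118) and *Ncf4* (0.124), and for *Nfkb2* *Lamb3* (0.099), *Gbp6* (0.112) and *Gm43302* (0.139). For *Nfkbia* the closest was *Nfkbie* (0.109), another IkB gene, before *Ncf4* (0.117) and *Nudt4* (0.121). *Ncf4* encodes a subunit of the phagocyte NADPH oxidase, and *Gbp6* an interferon-induced GTPase.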

How the data were processed

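RNA was measured in 8 libraries of splenic Tregs and Tconvs, 2 per group. The authors trimmed reads with Trimmomatic 0.36, mapped them to mm10 with STAR 2.5.3 and counted them per gene with HTSeq 0.9.1. The annotation release and strand setting are not given in the sources used here. The deposited score values are these counts scaled to about 20 M per library and rounded up, with totals from 19963628 to 20164600. The table names the control columns KO where the labels say WT or F1, and these were taken as the CD27+/- controls.

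Of 52636 rows, the 4131 with clone-derived names were dropped, as the step of 1 read in them was not that of their own library, and of 97 names on several rows the largest was kept. Genes reaching 60 in 2 or more libraries were tested with limma 3.58.1 (R 4.3.3) on log2(value + 5), with a trend, 1 coefficient for each of the 4 groups and no block, and Benjamini-Hochberg adjustment was made within each contrast. This scale understates the change of low genes. Since values were rounded up and the step of 1 read was not resolved in 2 libraries, no count model was used. Errors are SE, intervals are 95% and floors are the value of 3 reads, which cover counting error only. Positions and exon lengths are from GENCODE M21 (GRCm38), where 99.7% of identifiers were found, and promoters from RefSeq (GRCm38.p6).

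The members and lists were chosen with earlier results of these data known. Named were all members, of each pathway list up to 4 genes per direction that passed between genotypes, *Cd27*, *Cd70* and *Foxp3*, and the 3 closest genes of each member that passed between genotypes. *Map3k14*, *Psd* and the marker genes *Il2ra*, *Eomes*, *Klrb1c*, *Ncr1*, *Retnlg* and *Tnfrsf17* were named outside this rule, after their values were seen. Alternatives were other pseudocounts, minimum values, scalings, array weights, 4 libraries alone, clone-named rows kept, a fold threshold, and each library left out.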

Additional observations from a re-analysis of the deposited data

How the results depend on the processing

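No paired analysis was possible because replicate numbers stand only in the sample titles and not in the table's column names. The groups follow the same order in the columns and the titles. Pairing libraries by that order would be an assumption, and no such fit was run. No called log2 fold change of a member changed sign under an alternative, and 9 that were not called did under at least 1, among them the differences for *Nfkb2* and *Nfkbia* and the Tconv effects on *Traf3*, *Rel* and *Rela*. Without a minimum value, more genes were tested, and 0 of the members passed between genotypes in Tregs (4 in the report) and 2 in Tconvs (4), with 2 pathway genes in Tregs (9) and 8 in Tconvs (19). With the 4 libraries of a subset alone, 7 members and 21 pathway genes passed in Tregs. With an absolute log2 fold change over 1 as well, 0 members passed in Tregs and 1 in Tconvs, 4 and 0 between subsets in control and CD70Tg mice (7 and 8 without it), and 2 and 8 pathway genes in Tregs and Tconvs. With each library left out in turn, 2 to 5 members passed in Tregs, 0 to 1 for the difference, and 2 to 15 and 11 to 29 pathway genes in Tregs and Tconvs, where the lone library of a group was assumed to vary like the others. Of the single-gene values under the alternatives, 41 lost the call, 18 gained it and the rest kept their side of the threshold. *Traf1* and *Nfkb2* passed in both subsets, and *Nfkb1* in Tconvs, without each library in turn.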
